A study of Rattus norvegicus with 9 samples.

Results

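The apelin receptor gene Aplnr, the gene of its ligand Apln and 8 other genes of blood vessel growth (Angpt1, Angpt2, Tek, Flt1, Esm1, Pgf, Vegfc and Dll4) were followed in rat liver. These 10 of 32883 genes were taken by symbol, and all 10 had a row. They were selected with the comparison of DEN and normal liver already known, since Aplnr was among its largest differences, so the values of that comparison are given for them as a description with no test. The livers came from 9 Sprague-Dawley rats, all male, and mRNA was sequenced as 1 library per rat with 3 rats per group. The normal control rats (N1, N12 and N3) were kept on a normal diet, and the study's methods name no injection for them. The DEN rats (M13, M17 and M24) received diethylnitrosamine, a liver carcinogen, at 0.01% by a weekly intraperitoneal injection on a schedule of 16 weeks. The DEN plus PZH rats (G27, G28 and G42) received the same carcinogen and also Pien-Tze-Huang (PZH), a traditional Chinese formula. DEN was thus shared by the DEN and DEN plus PZH rats. Groups follow the first letter of each rat's name, because GEO's treatment field names PZH for rats M13, M17 and M24 too. The study used more than 1 PZH dose and collected livers at more than 1 week, and which dose, week and age each sequenced rat had is not given in the sources used here.

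Apelin is a secreted peptide that acts on Aplnr, a G-protein-coupled receptor of endothelial and other cells. Vascular endothelial growth factors act on the endothelial receptors Flt1, Kdr and Flt4, angiopoietins act on the receptor Tek (Tie2), and the Notch ligand Dll4 marks the leading tip cell of a sprouting vessel. Liver sinusoids are lined by a fenestrated endothelium, which loses its specialised markers and gains those of ordinary capillaries in chronic liver injury.

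Total counts ran from 16115709 to 16412520 in normal rats, from 15259441 to 16641954 in DEN rats and from 14922973 to 27161496 in DEN plus PZH rats, of which G27 was the deepest. Levels are given as CPM, which is the count relative to a library size scaled with TMM factors to a common depth. These factors ran from 0.731 to 0.799, from 1.21 to 1.58 and from 0.864 to 0.942 in the same groups. The smallest level counted as present, 3 counts, equalled 0.125 to 0.252 CPM and covers counting error only. Had library totals alone been used, the median gene would have moved on the log2 scale by 0.86 for DEN against normal, by -0.67 for DEN plus PZH against DEN and by 0.23 for DEN plus PZH against normal. Directions are therefore relative to the TMM scaling, and values under library totals are set beside those of the members and of the genes whose call or direction they change. Each library is from 1 rat, and p-values measure the spread among 3 such rats per group.

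Promoter sequences show what the members' start regions share apart from their levels. Of the 10 members, 5 had an entry in the RefSeq promoter table (assembly GRCr8), which holds 250 bases before and 50 bases after each gene start. Printed are 4 of them, those of a pair of ligand genes with higher DEN levels (Apln and Vegfc) and those of the VEGF receptor gene Flt1 and the endothelial gene Esm1. Capitals mark the hypoxia core, searched as ACGTG or GCGTG on both strands. These letters do not overlap those of the other motifs searched.
Apln, GRCr8 chrX:132091197-132091496 (minus strand): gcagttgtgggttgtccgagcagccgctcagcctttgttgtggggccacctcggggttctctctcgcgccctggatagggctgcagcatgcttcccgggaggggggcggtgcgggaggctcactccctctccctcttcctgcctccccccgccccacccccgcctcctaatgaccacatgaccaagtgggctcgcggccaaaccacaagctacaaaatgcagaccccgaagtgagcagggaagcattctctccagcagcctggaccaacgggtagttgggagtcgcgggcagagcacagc
Vegfc, GRCr8 chr16:44560838-44561137 (minus strand): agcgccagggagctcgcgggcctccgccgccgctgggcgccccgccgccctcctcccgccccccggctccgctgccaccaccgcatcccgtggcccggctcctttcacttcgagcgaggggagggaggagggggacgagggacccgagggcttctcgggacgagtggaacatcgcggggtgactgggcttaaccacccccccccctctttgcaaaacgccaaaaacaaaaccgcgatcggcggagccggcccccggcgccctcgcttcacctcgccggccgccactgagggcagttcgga
Flt1, GRCr8 chr12:12333180-12333479 (plus strand): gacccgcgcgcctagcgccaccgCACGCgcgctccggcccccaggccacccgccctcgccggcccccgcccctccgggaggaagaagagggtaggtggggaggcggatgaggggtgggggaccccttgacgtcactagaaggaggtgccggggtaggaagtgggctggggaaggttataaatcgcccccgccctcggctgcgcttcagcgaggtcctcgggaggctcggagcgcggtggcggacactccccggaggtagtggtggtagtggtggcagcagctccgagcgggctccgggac
Esm1, GRCr8 chr2:46609003-46609302 (plus strand): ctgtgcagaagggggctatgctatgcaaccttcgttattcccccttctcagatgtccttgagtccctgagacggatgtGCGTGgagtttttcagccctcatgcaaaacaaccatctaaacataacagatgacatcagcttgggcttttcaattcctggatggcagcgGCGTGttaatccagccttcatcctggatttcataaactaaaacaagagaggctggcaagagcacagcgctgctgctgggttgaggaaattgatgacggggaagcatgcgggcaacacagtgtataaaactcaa
The hypoxia core was found 2 times in the Esm1 window, 1 time in that of Flt1 and 0 times in those of Apln and Vegfc. It was present in 41.6% of all 33469 promoters of 300 bases. The GC box GGGCGG was found 2 times in the Apln window, 2 times in that of Vegfc, 3 times in that of Flt1 and 0 times in that of Esm1, beside 33.1% of all promoters holding it. A TATAAA was found 1 time each in the Flt1 and Esm1 windows, beside 14.2% of all promoters, and no CCAAT was found in any of these 4 windows, beside 37.5% of all promoters. The windows of Vegfc (73.0% G and C), Flt1 (72.7%) and Apln (65.0%) lay above the median promoter at 51.7%, and that of Esm1 (48.7%) lay below it. The fifth window, that of Pgf, held the hypoxia core 1 time and the GC box 2 times. These matches are descriptions of letters in a window.

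Aplnr had no count in any of the 3 normal rats. In DEN rats it was counted 1370 times in M13, 731 times in M17 and 354 times in M24, which is 58.2, 36.2 and 14.7 CPM. It was counted 38, 40 and 60 times in the DEN plus PZH rats G27, G28 and G42, which is 1.62, 2.78 and 4.27 CPM. No DEN plus PZH rat reached the lowest DEN rat, and no normal rat reached the lowest DEN plus PZH rat. The DEN mean of 36.4 ± 21.7 CPM (SD, n = 3) was at least 145-fold higher than normal, computed against the highest floor of a normal rat, and the lowest DEN rat alone was at least 58.5-fold higher. The DEN plus PZH mean of 2.89 ± 1.33 CPM (SD, n = 3) was at least 11.5-fold higher than normal, and the DEN mean was 12.6 times this DEN plus PZH mean. The lowest DEN rat stood 3.45 times above the highest DEN plus PZH rat, while the 3 DEN rats differed among themselves by up to 3.95 times. Between DEN plus PZH and DEN rats the fitted log2 difference was -3.65 (SE 0.55), or -4.29 under library totals. Both comparisons of the DEN plus PZH rats share rats with the one by which Aplnr was chosen, so its values there are descriptions too.

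Apln, the ligand gene, was present in all 9 livers, unlike its receptor. Its level was 1.79, 1.14 and 0.922 CPM in the normal rats, 10.5, 5.10 and 5.57 CPM in the DEN rats, and 1.71, 2.09 and 1.42 CPM in the DEN plus PZH rats. All 3 DEN rats were above all others, and the normal and DEN plus PZH rats overlapped. The fitted log2 difference was 2.47 (SE 0.42) for DEN against normal, or 3.34 under library totals. After PZH Apln fell by 1.99 on the log2 scale (SE 0.37, n = 3 per group, edgeR quasi-likelihood test, adjusted p = 0.0147 by Benjamini-Hochberg across the tested genes), or by 2.69 under library totals. Without M13, the DEN rat with the most Apln, the adjusted p in the same edgeR test was 0.0627, in a range of 4.49e-05 to 0.0627 over 11 alternatives. Against normal rats the difference of the DEN plus PZH rats was 0.44 (SE 0.43, edgeR adjusted p = 0.658). In counts, Apln stood at 18.1%, 14.1% and 37.9% of Aplnr in the 3 DEN rats and at 105%, 75.0% and 33.3% in G27, G28 and G42, so that the receptor gene had more reads than the ligand gene in 5 of these 6 livers.

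**Figure D1:**
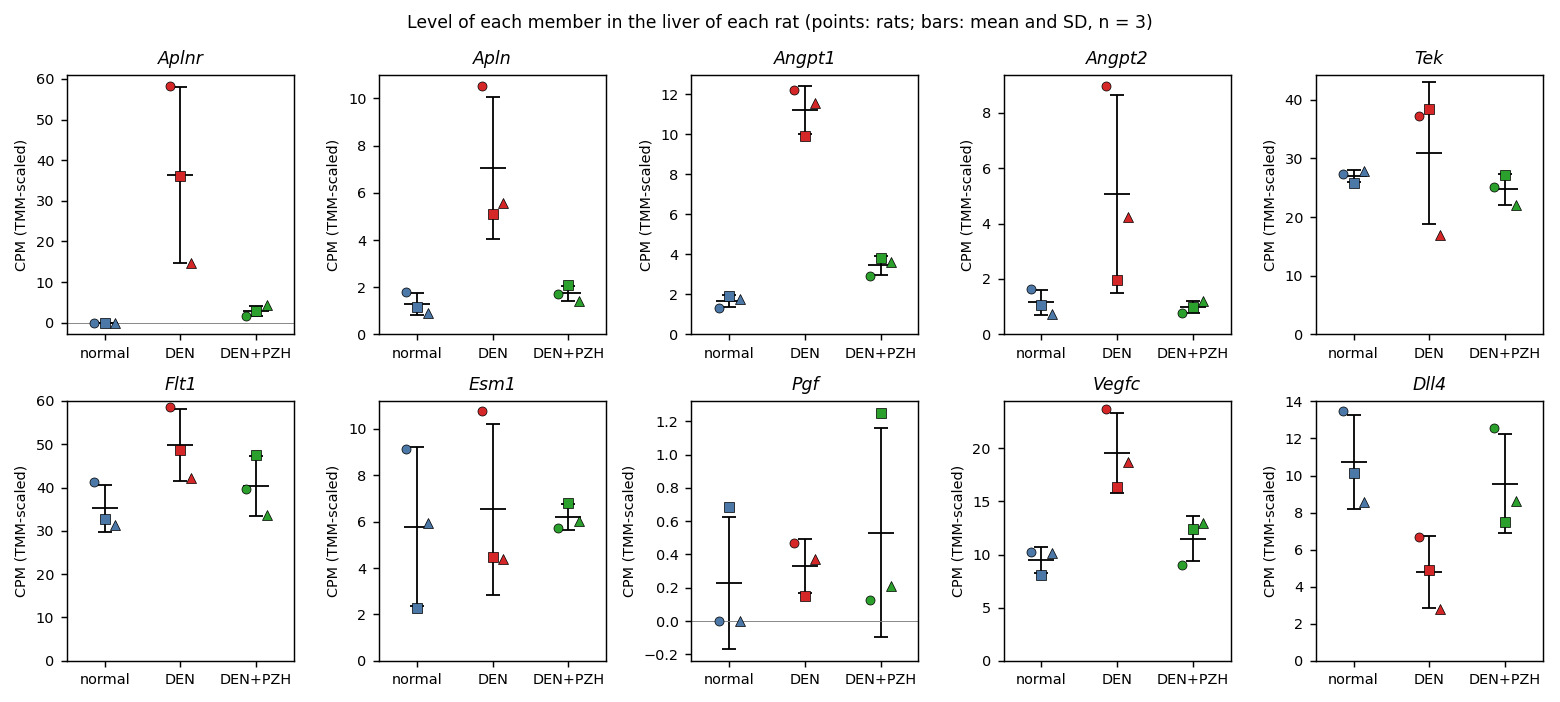
Level of each of the 10 members in each rat in CPM scaled with TMM factors (points, with a marker shape per rat within a group; bars, mean and SD, n = 3 rats), on a linear axis of its own per gene. Aplnr is at 0 in the 3 normal rats and from 14.7 to 58.2 CPM in the DEN rats, while Tek, Flt1, Esm1 and Pgf overlap between DEN and DEN plus PZH rats.

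Among the angiopoietins, Angpt1, the activating ligand of Tek made mainly by mural and stellate cells, had the least spread of the members that were high in DEN liver. It was at 1.33, 1.91 and 1.76 CPM in normal rats, at 12.2, 9.90 and 11.6 CPM in DEN rats, and at 2.90, 3.82 and 3.63 CPM in DEN plus PZH rats. The 3 groups did not overlap, with DEN plus PZH rats between the others. The fitted log2 difference between DEN and normal rats was 2.76 (SE 0.27), or 3.64 under library totals. Angpt1 fell by 1.68 on the log2 scale after PZH (SE 0.23, edgeR adjusted p = 0.00897), and by 2.36 under library totals. This call was held in 11 of 11 alternatives, the highest edgeR adjusted p being 0.0464 without M13. The DEN plus PZH rats differed from normal rats by 1.05 (SE 0.36), which did not pass (edgeR adjusted p = 0.150, from 0.0430 to 0.438 over 11 alternatives).

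Angpt2, the ligand that can oppose Angpt1 on Tek and is released by activated endothelium, varied most among the DEN rats. It was at 1.64, 1.07 and 0.755 CPM in normal rats, at 8.96, 1.98 and 4.24 CPM in DEN rats, and at 0.767, 0.973 and 1.21 CPM in DEN plus PZH rats. No DEN rat overlapped the other groups, but M17 was close to the highest normal rat, and the normal and DEN plus PZH rats overlapped. Its fitted log2 difference was 2.14 (SE 0.59) for DEN against normal rats, or 3.04 under library totals. It fell by 2.35 on the log2 scale after PZH (SE 0.57, edgeR adjusted p = 0.0271), or by 3.06 under library totals, a call that 6 of 11 alternatives held. The call was lost on leaving out M13, M24, G27, G28 or G42, each in turn, with the highest edgeR adjusted p at 0.105 without M13. DEN plus PZH rats differed from normal rats by -0.23 (SE 0.48, edgeR adjusted p = 0.862).

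Tek, the receptor of both angiopoietins, differed little between groups under TMM scaling. It was at 27.4, 25.8 and 27.8 CPM in normal rats, at 37.3, 38.4 and 16.97 CPM in DEN rats, and at 25.1, 27.19 and 22.0 CPM in DEN plus PZH rats. The DEN rats spanned the other groups, with M24 below all of them. The fitted log2 difference was 0.21 (SE 0.29) for DEN against normal rats and -0.29 (SE 0.30, edgeR adjusted p = 0.530) for DEN plus PZH against DEN rats. Under library totals these were 1.04 and -0.93, and the second passed there (edgeR adjusted p = 0.0255, in a range of 0.0255 to 0.845 over 11 alternatives). The small difference between DEN plus PZH and normal rats, -0.12 (SE 0.19, edgeR adjusted p = 0.801), turned to 0.11 under library totals.

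Vegfc, a growth factor gene best known for lymphatic vessel growth through Flt4, was at 10.2, 8.08 and 10.1 CPM in normal rats. It was at 23.7, 16.3 and 18.7 CPM in DEN rats and at 9.04, 12.4 and 12.95 CPM in DEN plus PZH rats. All DEN rats lay above the rest, and the other groups overlapped. DEN and normal rats differed by a fitted log2 value of 1.06 (SE 0.21), or 1.94 under library totals. For DEN plus PZH against DEN rats it was -0.75 (SE 0.22), just short of the threshold (edgeR adjusted p = 0.0513), and 5 of 11 alternatives passed it, in a range of 0.00667 to 0.210. Under library totals it was -1.43, which passed.

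Flt1, the VEGF receptor that binds Vegfa, Vegfb and Pgf and can act as a decoy, was at 41.3, 32.8 and 31.4 CPM in normal rats. It was at 58.6, 48.6 and 42.2 CPM in DEN rats and at 39.7, 47.6 and 33.7 CPM in DEN plus PZH rats. DEN rats lay narrowly above the normal rats and overlapped the DEN plus PZH rats. The fitted log2 difference was 0.52 (SE 0.18) for DEN against normal rats and -0.28 (SE 0.20, edgeR adjusted p = 0.360) for DEN plus PZH against DEN rats. Under library totals they were 1.37 and -0.95, and the second passed (edgeR adjusted p = 0.0125, from 0.0125 to 0.745 over 11 alternatives).

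Pgf, a ligand of Flt1, was near the limit of detection in every group. It was counted 0, 9 and 0 times in normal rats, 11, 3 and 9 times in DEN rats, and 3, 18 and 3 times in DEN plus PZH rats. It was the member of the 10 left out of all 3 fits by the filter on low counts, and no difference was detectable at this depth.

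Esm1, which encodes endocan, a proteoglycan secreted by activated endothelium and tip cells, was at 9.13, 2.29 and 5.95 CPM in normal rats. It was at 10.8, 4.45 and 4.37 CPM in DEN rats and at 5.71, 6.81 and 6.05 CPM in DEN plus PZH rats. The groups overlapped throughout, and the DEN plus PZH rats had the least spread. Its fitted log2 difference of 0.20 (SE 0.52) for DEN against normal rats turned to -0.36 without M13 and was 1.08 under library totals. The difference of -0.054 (SE 0.38, edgeR adjusted p = 0.937) for DEN plus PZH against DEN rats turned to 0.51 without M13 and was -0.74 under library totals.

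Dll4, the Notch ligand of tip cells, was the member with the opposite direction. It was at 13.5, 10.1 and 8.55 CPM in normal rats, at 6.67, 4.90 and 2.79 CPM in DEN rats, and at 12.6, 7.51 and 8.61 CPM in DEN plus PZH rats. All DEN rats were below all others, which overlapped. DEN and normal rats differed by a fitted log2 value of -1.15 (SE 0.34), or -0.31 under library totals. For DEN plus PZH against DEN rats it was 1.03 (SE 0.36), which did not pass (edgeR adjusted p = 0.0809), or 0.36 under library totals.

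**Figure D2:**
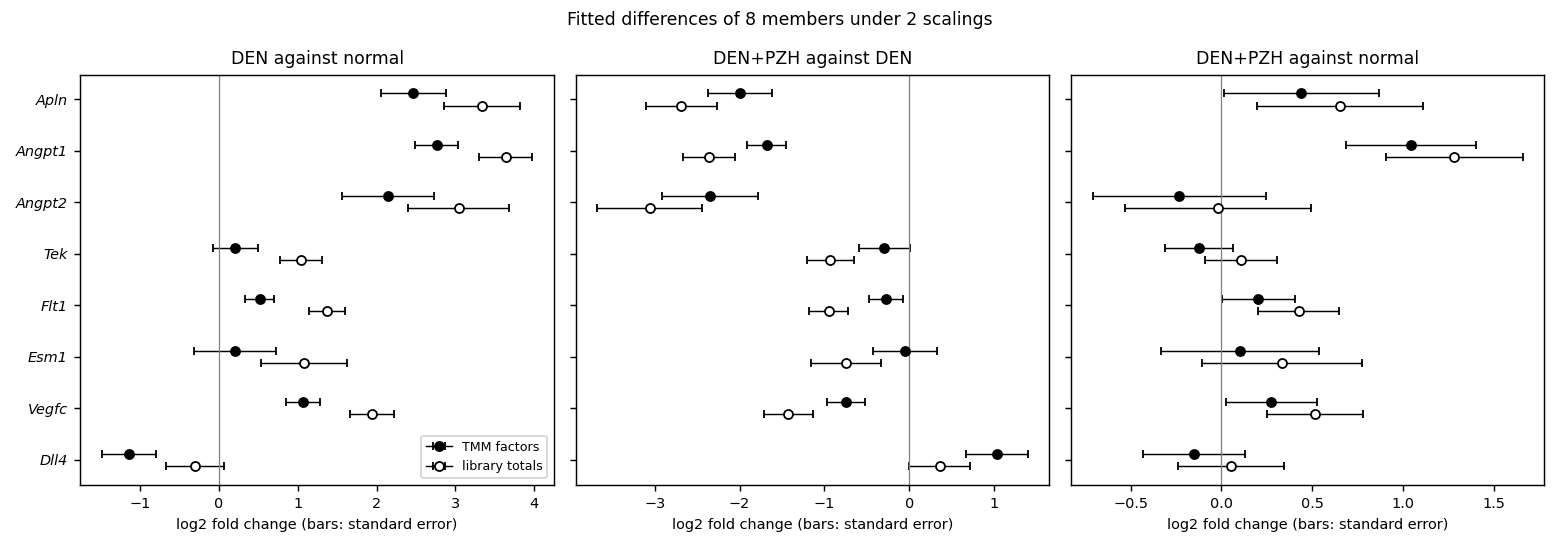
Fitted log2 fold change of 8 members (rows) in the 3 comparisons (panels), with TMM factors (filled) and with library totals (open), and bars for the standard error. Aplnr is left out because all normal rats are at 0, and Pgf because it was not fitted. For Apln, Angpt1 and Angpt2 both scalings lie well above 0 for DEN against normal and well below 0 for DEN plus PZH against DEN, while Tek and Dll4 change sign between scalings for DEN plus PZH against normal.

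Genes were counted as changed at the thresholds that the study used, which require more than 2 log2 units in either direction and an unadjusted P under 0.001. For DEN against normal, 3 of the 9 fitted members were higher by this rule (Aplnr, Apln and Angpt1), beside 8.81% of 14255 genes tested, and 0 were lower, beside 3.49%. At an adjusted p under 0.05 alone, 6 were higher and 1 was lower, beside 25.3% and 20.5% of all genes, and 7 were higher and 0 lower under library totals, beside 57.0% and 6.72%. These members were chosen by this comparison, and nothing is read from the counts. For DEN plus PZH against DEN, 1 of 9 was lower at the thresholds, beside 1.35% of 14272 genes. It was Aplnr, which was selected for its high DEN values, so nothing is read from that count, and Apln was just short of the fold required. Without G27 or G28 the number was 0, and without M17 it was 3. At an adjusted p under 0.05, Apln, Angpt1 and Angpt2 were lower, 3 of the 8 fitted members other than Aplnr, and none of the 8 was higher, beside 10.3% and 8.72% of all genes. Under library totals 7 of the 9 fitted members, Aplnr included, were lower and 0 higher, beside 39.9% and 3.90% of all genes. Since that comparison shares the DEN rats with the one used for selection, a fall of members high in DEN rats is favoured by the choice. For DEN plus PZH against normal, Aplnr stood past both rules, beside 2.16% of 13348 genes higher at the thresholds and 4.07% higher and 1.15% lower at an adjusted p under 0.05. It was kept by the filter through its counts in DEN plus PZH rats alone, and nothing is read from this. The other 8 fitted members had edgeR adjusted p from 0.150 to 0.937 in that comparison, which shares the normal rats with the selection. Median log2 fold changes over the 9 members were 1.06, -0.75 and 0.20 in the 3 comparisons, and those of all genes tested were 0.029, 0.0053 and -0.020.

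Levels were compared between genes only per transcript length, as the deposited FPKM (reads scaled for transcript length and library total). In normal liver Tek was the highest at 4.59 ± 0.164 FPKM, then Flt1 at 3.93 ± 0.724 and Vegfc at 3.44 ± 0.394 (SD, n = 3 here and in the next sentences). Flt1 lay within its spread of both. Esm1 at 2.06 ± 1.25 and Dll4 at 1.83 ± 0.494 could not be told apart by their spread, and Angpt1 (0.681), Angpt2 (0.369), Apln (0.327), Pgf (0.117) and Aplnr (0) followed. In DEN liver the order was led by Aplnr at 14.1 ± 8.86 FPKM, with 23.7, 12.1 and 6.36 FPKM in M13, M17 and M24. Vegfc at 13.2 ± 3.65, Flt1 at 10.2 ± 2.09, Tek at 9.42 ± 3.23 and Angpt1 at 8.54 ± 1.89 followed, all within the spread of Aplnr. Esm1 at 4.35, Apln at 3.32 and Angpt2 at 3.06 overlapped in their spread, with means above Dll4 at 1.48 and Pgf at 0.313 FPKM. In DEN plus PZH liver the first 5 genes were those of normal liver, namely Flt1 at 5.28 ± 0.952, Tek at 4.94 ± 0.529, Vegfc at 4.94 ± 1.11, Esm1 at 2.60 ± 0.323 and Dll4 at 1.90 ± 0.438 FPKM. Neighbours among the first 3 did not differ beyond their spread. Angpt1 at 1.67, Aplnr at 0.732, Apln at 0.515, Angpt2 at 0.369 and Pgf at 0.315 FPKM followed.

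Ratios of counts within one library do not depend on scaling between libraries. Flt1 was counted 25.9%, 24.6% and 25.8% as often as Kdr, the main signalling receptor for VEGF, in normal rats. In DEN rats it stood at 72.9%, 68.8% and 124% of Kdr, and in DEN plus PZH rats at 29.9%, 39.1% and 33.5%. The 3 groups did not overlap in this ratio, and DEN plus PZH rats lay nearer to normal rats. Vegfc stood at 5.71%, 5.05% and 7.22% of Vegfa in normal rats, at 22.8%, 26.4% and 28.05% in DEN rats, and at 5.93%, 15.5% and 19.0% in DEN plus PZH rats. Here G27 lay among the normal rats while G28 and G42 lay closer to the DEN rats. Dll4 stood at 225%, 208% and 309% of the endothelial Notch receptor Notch4 in normal rats, at 52.9%, 47.1% and 41.4% in DEN rats, and at 157%, 186% and 144% in DEN plus PZH rats. These groups did not overlap either.

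On the log2 scale with 0.5 added to each count, Flt1 to Kdr differed between DEN plus PZH and DEN rats by -1.33, Vegfc to Vegfa by -1.09 and Dll4 to Notch4 by 1.78. Each had a two-sided exact permutation p of 0.1, the smallest that 3 rats against 3 allow, and a Benjamini-Hochberg value of 0.2 over the 6 ratios tested. Angpt2 to Tek differed by -1.86 (exact permutation p = 0.2, adjusted 0.3), with M17 at 5.15% beside 24.0% in M13 and 25.0% in M24. Angpt2 to Angpt1 differed by -0.39 (exact permutation p = 0.6, adjusted 0.72) and Pgf to Vegfa by -0.15 (exact permutation p = 0.9, adjusted 0.9). No ratio could pass 0.05 in this design.

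**Figure D3:**
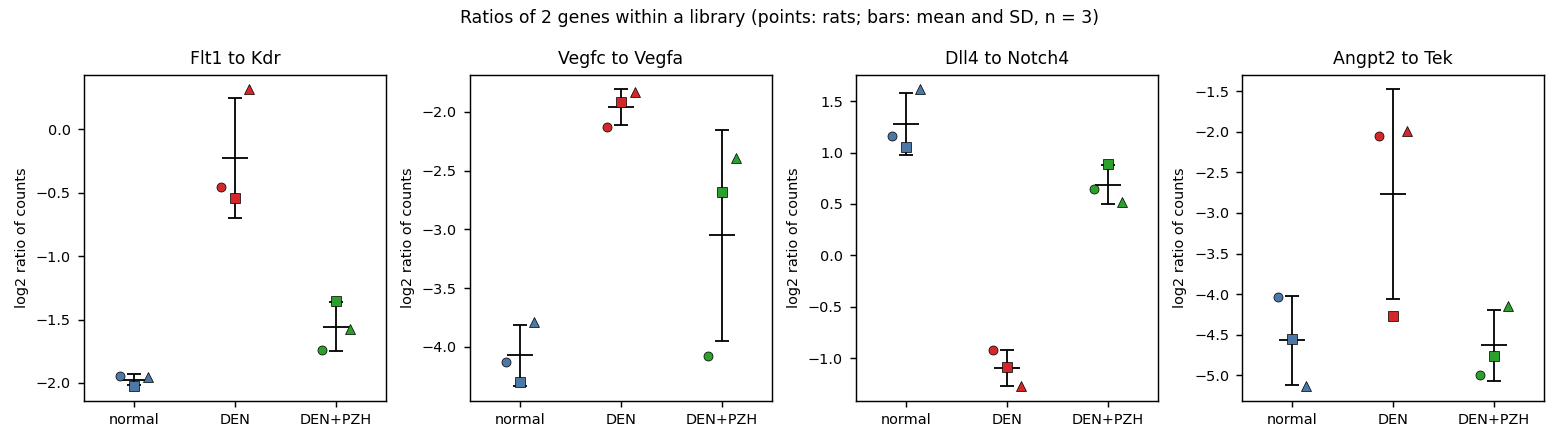
Log2 ratio of the counts of 2 genes in the same library, with 0.5 added to each count (points, rats; bars, mean and SD, n = 3). Flt1 to Kdr and Dll4 to Notch4 separate the 3 groups, with means of -1.98, -0.23 and -1.56 and of 1.28, -1.09 and 0.69 in normal, DEN and DEN plus PZH rats. Angpt2 to Tek overlaps between DEN and the other groups through 1 DEN rat at -4.26.

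Markers of the endothelium were read beside the members. In bulk liver, fewer cells of a type and less RNA per cell cannot be told apart. The pan-endothelial list, led by Eng and Cdh5, had 11 of 12 genes with a row, and its sum ran from 203 to 270 CPM in normal rats, from 235 to 510 in DEN rats and from 183 to 278 in DEN plus PZH rats. These groups overlapped, with exact permutation p of 0.3 for DEN against normal, 0.3 for DEN plus PZH against DEN and 0.7 for DEN plus PZH against normal. Under library totals the DEN rats, at 371 to 758, overlapped neither the normal rats at 149 to 216 nor the DEN plus PZH rats at 173 to 240, with log2 differences of 1.45 and -1.31 (exact permutation p = 0.1 for each, the smallest possible). Of its genes, 1 of 10 tested (Cdh5) was higher at an adjusted p under 0.05 in DEN than in normal rats, beside 25.3% of all genes, and under library totals 8 were, beside 57.0%. Between DEN plus PZH and DEN rats the lowest edgeR adjusted p among its 11 genes was 0.111, again that of Cdh5, the 1 gene of the list with an unadjusted p under 0.05 there, and under library totals 10 of the 11 were lower, beside 39.9% of all genes. Cldn5 was at 0 counts in N3, M13 and M24 and had 114 in M17, while no other gene of the endothelial lists was at 0 in any rat. Pecam1 was not analysed here. The sinusoidal list (9 of 9 genes, led by Fcgr2b and Lyve1) summed to 569 to 648 CPM in normal rats, 223 to 374 in DEN rats and 449 to 585 in DEN plus PZH rats. The exact permutation p was 0.1 for DEN against normal and 0.1 for DEN plus PZH against DEN, the smallest possible, but under library totals the log2 differences shrank from -1.04 to -0.17 and from 0.76 to 0.13. The capillary and large-vessel list (3 of 3 genes, Vwf, Plvap and Cd34) summed to 20.7 to 37.5 CPM in normal rats, 95.5 to 153 in DEN rats and 45.8 to 69.5 in DEN plus PZH rats. All 3 of its genes were higher in DEN than in normal rats at an adjusted p under 0.05, beside 25.3% of all genes. By the same rule all 3 were lower in DEN plus PZH than in DEN rats, beside 10.3%. Cd34, at 6, 2 and 4 counts in normal rats, passed the filter on low counts in the first of these comparisons through the DEN rats alone.

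As a percent of the summed pan-endothelial counts of the same library, a scale chosen after the data were seen, Aplnr stood at 11.4%, 8.82% and 6.26% in DEN rats. In G27, G28 and G42 it stood at 0.582%, 1.17% and 2.33%. Its DEN rats differed less on this scale than in CPM, and the groups again did not overlap. For Angpt1 (2.40%, 2.41% and 4.92% in M13, M17 and M24) and Vegfc (4.65%, 3.98% and 7.94%) the DEN rats differed more on this scale than in CPM. Mean values in normal, DEN and DEN plus PZH rats were 0.516%, 1.89% and 0.756% for Apln, and 0.690%, 3.24% and 1.54% for Angpt1. Those of the receptors Tek (11.2%, 7.97% and 10.8%) and Flt1 (14.4%, 13.8% and 17.6%) differed far less. Dll4 stood at 5.04%, 3.76% and 4.21% in normal rats, at 1.31%, 1.19% and 1.19% in DEN rats and at 4.52%, 3.16% and 4.70% in DEN plus PZH rats, a close range within the DEN group. Kdr moved likewise, from 56.4% to 15.8% and 51.2% on average.

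Other cell types moved with the groups. The stellate and mural list (7 of 7 genes, led by Col1a1 and Reln), a source of Angpt1, summed to 133 to 161 CPM in normal rats, 515 to 1569 in DEN rats and 235 to 284 in DEN plus PZH rats. The cholangiocyte list (4 of 4, led by Krt19 and Epcam) ran from 11.8 to 19.6, from 156 to 598 and from 71.3 to 79.6 CPM, with its marker Krt7 at 0 in N1 and N3. The hepatocyte list (5 of 5, led by Alb and Tf) ran from 136850 to 145232, from 27661 to 60581 and from 111277 to 150348 CPM. The macrophage list (5 of 5, led by Clec4f and Cd5l) ran from 435 to 762, from 286 to 440 and from 205 to 541 CPM. Of its 5 genes, 2 had a higher fitted value in DEN than in normal rats (Cd68 and Adgre1) and 3 a lower one. The log2 difference of the sum between DEN and normal rats turned from -0.63 to 0.24 under library totals. Lymphocyte markers (2 of 3, Cd3e and Nkg7) summed to 1.95 to 2.59, 4.26 to 17.8 and 0.356 to 4.38 CPM, and the proliferation markers Mki67 and Top2a to 3.90 to 5.80, 77.6 to 120 and 20.5 to 55.4 CPM. The part of these lists in the members' differences was not tested. Within the DEN group, M13 had the highest level of every member but Tek, while M24 had the highest stellate, cholangiocyte and lymphocyte sums.

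**Figure D4:**
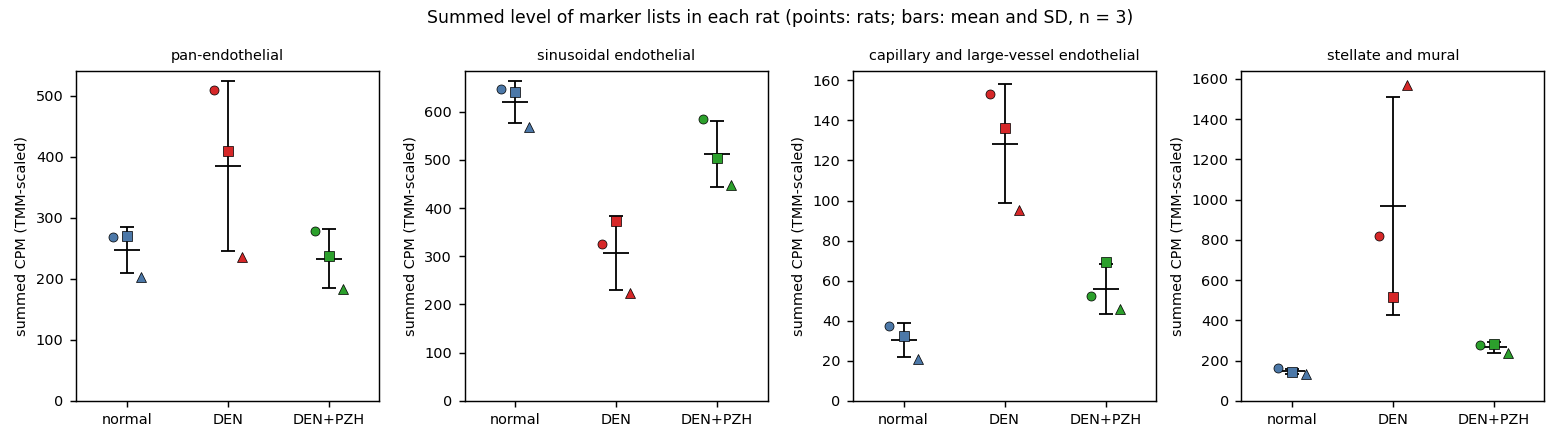
Summed CPM of 4 marker lists in each rat (points, rats; bars, mean and SD, n = 3 rats per group). Under this TMM scaling the pan-endothelial sum overlaps between the groups and the sinusoidal sum is lowest in DEN rats (223 to 374 CPM), whereas under library totals the first separates the DEN rats and the second overlaps. The capillary and the stellate sums are highest in DEN rats under both.

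The other genes of these pathways were taken from a list of 40, of which 39 had a row. In DEN against normal rats, the thresholds were passed by 13 of the 37 genes tested, of which 12 were higher and 1 was lower, beside 8.81% and 3.49% of all genes. Without N3 the number was 8. At an adjusted p under 0.05, 18 were higher and 10 lower, beside 25.3% and 20.5% of all genes. Kcne3, Sphk1 and Mme are among the higher genes by both rules, though they passed the filter on low counts through the DEN rats alone. Under library totals 24 were higher and 3 lower, beside 57.0% and 6.72% of all genes. The list's median log2 fold change was 0.62 beside 0.029 for all genes. Of the VEGF ligands, Vegfd, a lymphatic growth factor, rose from 0.936, 1.45 and 2.26 CPM to 44.4, 20.4 and 35.2 CPM (log2 fold change 4.44, SE 0.41, edgeR adjusted p = 0.000177). Vegfa, the main endothelial growth factor, went the other way, from 179, 160 and 141 CPM to 104, 61.8 and 66.6 CPM, and fell by 1.03 on the log2 scale (SE 0.24, edgeR adjusted p = 0.00803), or by 0.16 under library totals, where it did not pass (edgeR adjusted p = 0.630, the highest of 11 alternatives, in a range from 0.000355). Kdr fell by 1.15 (SE 0.31, edgeR adjusted p = 0.0151), or by 0.32 under library totals, with the highest DEN rat at 80.3 CPM and the lowest normal rat at 122 CPM. That call was lost under library totals (edgeR adjusted p = 0.348, in a range of 0.00168 to 0.348 over 11 alternatives) and without N1.

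The VEGF co-receptor Nrp1 rose by 1.59 on the log2 scale (SE 0.17, edgeR adjusted p = 0.000317) and Notch4 by 1.14 (SE 0.35, edgeR adjusted p = 0.0259), which was lost without M13, M17, N12 or N3 (0.00158 to 0.103 over 11 alternatives). Flt4, the receptor of Vegfc and Vegfd, had a difference of 0.10 (SE 0.30, edgeR adjusted p = 0.804), and Tie1, the partner of Tek, one of 0.62 (SE 0.28, edgeR adjusted p = 0.108). Under library totals both passed, Flt4 at 0.93 (edgeR adjusted p = 0.0231, in a range of 0.0231 to 0.995 over 11 alternatives) and Tie1 at 1.43 (edgeR adjusted p = 0.00169, in a range of 0.00169 to 0.275). Tie1 also passed without M24. The list's tip cell group (Kcne3, Nid2, Unc5b and Cxcr4) had 4 of 4 genes higher in DEN than in normal rats at an adjusted p under 0.05, beside 25.3% of all genes, whereas the members Dll4 and Esm1, also tip cell genes, had differences of -1.15 and 0.20. Among them Kcne3, a potassium channel subunit, was at 0 counts in all normal rats and at 67, 12 and 67 counts in M13, M17 and M24, at least 8.25-fold higher by the mean. Sphk1, which makes sphingosine 1-phosphate, was at 3, 3 and 0 counts in normal rats and at least 12.3-fold higher in DEN rats. Kcne3 and Sphk1 passed the filter on low counts through the DEN rats alone, so no p is given for them here, and without Kcne3 the tip cell count was 3 of 3. Cxcl12, the chemokine ligand of Cxcr4, was the 1 gene that fell past the thresholds, from 437, 568 and 477 CPM to 60.4, 63.2 and 52.5 CPM (log2 fold change -3.06, SE 0.23, edgeR adjusted p = 9.51e-05).

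In DEN plus PZH against DEN rats, 1 of 36 tested list genes passed the thresholds, Vegfd, beside 1.35% of all genes tested lower by that rule, and 2 passed without G28 or M17. At an adjusted p under 0.05, 11 were lower and 3 higher, beside 10.3% and 8.72% of all genes, and under library totals 23 and 1, beside 39.9% and 3.90%. The list's median was -0.58 beside 0.0053 for all genes. Vegfd fell by 2.35 on the log2 scale (SE 0.34, edgeR adjusted p = 0.0093), to 4.43, 7.996 and 6.97 CPM. Kcne3 fell by 3.21 (SE 0.92), from 67, 12 and 67 counts in DEN rats to 4, 7 and 0 counts. It passed the filter on low counts through the DEN rats alone, so no p is given for it. The 11 lower genes include it, a call lost without G27, G28, G42, M13 or M24. Sphk1, also among the 11, was at 17, 12 and 22 counts in G27, G28 and G42 and passed that filter through the DEN rats alone too. Thbs1, the vessel growth inhibitor thrombospondin 1, fell by 1.93 (SE 0.30, edgeR adjusted p = 0.0102), and Pdgfb, the ligand that recruits pericytes, by 1.82 (SE 0.36, edgeR adjusted p = 0.0164), the latter lost without M13 or G42 (highest 0.0710). Kdr had a difference of 0.97 (SE 0.32, edgeR adjusted p = 0.0652) and Nrp1 one of -0.68 (SE 0.21, edgeR adjusted p = 0.0567), both short of the threshold. Under library totals Nrp1 passed, at -1.35 (edgeR adjusted p = 0.00581, in a range of 0.00581 to 0.204 over 11 alternatives), and Kdr was at 0.32. Notch4 (-0.69), Tie1 (-0.51) and Flt4 (-0.098) had edgeR adjusted p of 0.187, 0.214 and 0.849. Under library totals Notch4 at -1.36 (edgeR adjusted p = 0.0126, in a range of 0.0126 to 0.487) and Tie1 at -1.16 (edgeR adjusted p = 0.00695, in a range of 0.00695 to 0.460) passed, and Flt4 at -0.76 did not. Vegfa had a difference of 0.41 (SE 0.35, edgeR adjusted p = 0.443), which turned to -0.31 under library totals.

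In DEN plus PZH against normal rats, 3 of 35 tested list genes passed the thresholds, all higher, beside 2.16% of all genes tested. Without N1, N12 or G28 the number was 0, and without N3 it was 1. Among them was Mme (log2 fold change 3.36, SE 0.70), the peptidase neprilysin, which cleaves apelin among other peptides. Mme was at 30, 9 and 21 counts in N1, N12 and N3. It passed the filter on low counts through the DEN plus PZH rats alone, so no p is given for it. Vegfd passed the thresholds too (2.05, SE 0.43, edgeR adjusted p = 0.0278). At an adjusted p under 0.05, 7 were higher and 1 lower, beside 4.07% and 1.15% of all genes, with a list median of 0.070 beside -0.020 for all genes. The calls of Mme, Vegfd, Jag1 and Cxcl12 in this comparison were each lost on leaving out some single rats, among them N1, N12 and G28, with the highest edgeR adjusted p at 0.124. Jag1, a Notch ligand, was among the higher (1.60, SE 0.30, edgeR adjusted p = 0.0194), and Cxcl12 was the lower one (-1.35, SE 0.25, edgeR adjusted p = 0.0188). Nrp1 at 0.88 had an edgeR adjusted p of 0.0552, and passed under library totals at 1.11 (0.0132 to 0.243 over 11 alternatives), while Vegfa (-0.67), Kdr (-0.22), Notch4 (0.42), Tie1 (0.070) and Flt4 (-0.031) had values from 0.280 to 0.970. Flt4 turned to 0.17 under library totals.

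Mme did not follow the receptor. Its log2 difference was 2.91 for DEN against normal (SE 0.45), where it passed the filter on low counts through the DEN rats alone, so no p is given. For DEN plus PZH against DEN the difference was 0.49 (SE 0.58, edgeR adjusted p = 0.587), turning to -0.18 under library totals. G28 was its highest rat at 32.5 CPM. The second ligand of the receptor, Apela, was not analysed here.

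**Figure D5:**
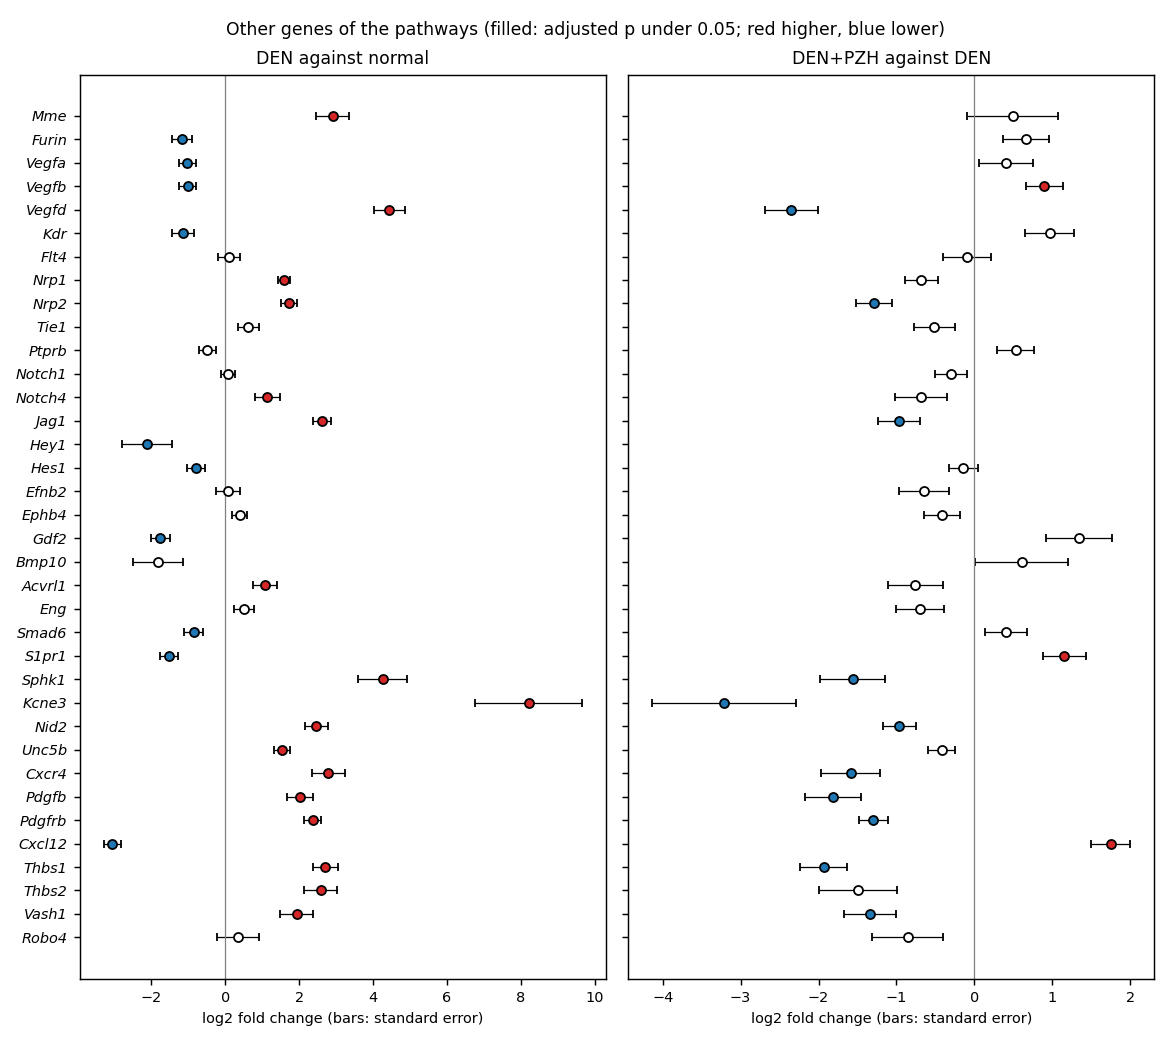
Fitted log2 fold change of the other pathway genes (rows) for DEN against normal and for DEN plus PZH against DEN, with bars for the standard error. Filled points have an adjusted p under 0.05, red for higher (17 and 3 genes shown) and blue for lower (10 and 11 genes shown), and Hey1 was not fitted in the second comparison. Among the filled points, Kcne3 and Sphk1 in both panels and Mme and Vash1 in the first passed the filter on low counts through the DEN rats alone.

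The genes whose pattern over the 9 rats was nearest to that of Aplnr were sought among 12692 genes with an official symbol. Likeness was the root-mean-square difference of log2(CPM + 1), each gene centred on its own mean. Values were not scaled, so a gene with the same order of groups but smaller changes is far from Aplnr by this measure. The 5 nearest were Gabrp (0.51), a GABA receptor subunit, Lcn2 (0.52), which encodes the iron-siderophore carrier lipocalin 2, Rgs4 (0.56), a regulator of G-protein signalling, Dclk1 (0.57), a doublecortin-like kinase, and Prom1 (0.58), the membrane protein prominin 1. All 5 were also among the 5 nearest under library totals. Gabrp averaged 0.0508, 18.6 and 1.57 CPM in normal, DEN and DEN plus PZH rats, and Lcn2 averaged 1.57, 71.3 and 10.8 CPM. None of the members was that near, with Angpt1 at rank 446, Apln at 744, Angpt2 at 1402 and Vegfc at 2069, and Dll4 at 11187 was the farthest of the 8 ranked.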

How the data were processed

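The authors sequenced liver mRNA on an Illumina NovaSeq instrument and deposited 1 table with a gene per line. The submitters' processing notes name fastp, HISAT2 2.1.0, StringTie 1.3.3b and edgeR 3.30.3, and the genome build is not given in the sources used here. In the deposited count columns each value is a whole number of reads, and the authors left these counts without normalization. The deposited FPKM columns hold the same counts divided by transcript length and library total. The table also holds the authors' own comparisons (log2 fold changes with P and Q), none of which was used. The deposited counts were tested in R 4.3.3 with edgeR 4.0.16 (filterByExpr, TMM factors and the quasi-likelihood functions glmQLFit and glmQLFTest), with a fit of 6 rats per comparison and no covariate, and p-values were adjusted by Benjamini-Hochberg over all genes tested. Calls used the study's thresholds, and an adjusted p under 0.05 was read beside them. The standard error is the absolute log2 fold change divided by the square root of F. Sums and ratios were compared by exact two-sided permutation. A fold against normal rats at or under 3 counts is a bound, computed from the group mean against the highest floor of a normal library.

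The members and gene lists were chosen with earlier results of these data known. The pathway and marker lists were written from textbook knowledge. Tie1, Eng and Robo4 stand in both the pathway list and the pan-endothelial list, and Pdgfrb in both the pathway list and the stellate list. Of the pathway list the text names, per comparison, the 4 genes with the largest change at an adjusted p under 0.05, and always Apela, Vegfa, Kdr, Flt4, Nrp1, Tie1 and Notch4. It names the 5 genes nearest to Aplnr and the 2 most abundant markers of each list. Other names were added after their values were seen. Some genes that these rules name are not reported here. Alternatives were DESeq2 1.42.0, library totals, testing without the filter on counts, requiring 10 counts in each rat, a single fit of all 3 groups, the adjusted p alone, leaving out each rat, and 1 in place of 0.5 added in ratios. The fits were tested on simulated counts in which 200 genes differed by 3 log2 units, each in a random direction. That simulation held no shift between groups like the one in the TMM factors, so it does not bear on the choice of scaling.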

Additional observations from a re-analysis of the deposited data

How the results depend on the processing

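Of 293 refitted log2 fold changes of members, 285 kept their direction. Those that reversed were small, and their ranges on leaving out 1 rat were -0.36 to 0.66 for Esm1 in DEN against normal and -0.28 to 0.51 in DEN plus PZH against DEN. In DEN plus PZH against normal they were -0.29 to 0.55 for Esm1, -0.44 to 0.077 for Angpt2, -0.41 to 0.017 for Dll4 and -0.23 to 0.071 for the summed pan-endothelial level. Under library totals Tek (0.11), Dll4 (0.053) and the pan-endothelial sum (0.14) also turned positive there.

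Counts at the thresholds depended more on the setting. Members called in DEN against normal went from 3 to 7 with the adjusted p alone, and pathway genes from 13 to 28, with 8 to 13 on leaving out 1 rat. In DEN plus PZH against DEN the 1 member called became 2 with DESeq2, 2 with at least 10 counts per rat, 2 with all groups in one fit, 4 under library totals and 4 with the adjusted p alone, and 0 to 3 on leaving out 1 rat. The 1 pathway gene became 2 with DESeq2, 5 under library totals and 14 with the adjusted p alone, and 1 to 2 on leaving out 1 rat. In DEN plus PZH against normal, requiring 10 counts in every rat left 0 members, since Aplnr is at 0 in normal rats and was no longer tested. The cause of the other changes was not tested. The 3 pathway genes there became 8 with the adjusted p alone and 0 to 3 on leaving out 1 rat. No paired analysis was possible because the groups share no replicate number.

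Depth limits Pgf, Kcne3 and the normal levels of Aplnr and Sphk1, which rest on few or no counts. With 3 rats per group, exact permutation cannot go below 0.1.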

Other observations

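Angiopoietin-like genes, named for their likeness to the angiopoietins but not ligands of Tek, were read after the values had been seen. Angptl4, a secreted inhibitor of lipoprotein lipase, was at 478, 349 and 196 CPM in normal rats, at 40.1, 52.9 and 43.2 CPM in DEN rats and at 116, 135 and 112 CPM in DEN plus PZH rats. The 3 groups did not overlap. Angptl4 fell by 2.89 on the log2 scale in DEN rats (SE 0.33, edgeR adjusted p = 0.000408), and was 1.44 higher after PZH (SE 0.19, edgeR adjusted p = 0.0089). It stayed 1.47 lower than in normal rats (log2 fold change -1.47, SE 0.29, edgeR adjusted p = 0.0235).

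Angptl6 was at 31.6, 30.8 and 11.8 CPM in normal rats, at 2.76, 2.03 and 2.25 CPM in DEN rats and at 28.6, 7.996 and 6.97 CPM in DEN plus PZH rats. It fell by 3.37 on the log2 scale in DEN rats (SE 0.39, edgeR adjusted p = 0.000406) and was 2.67 higher after PZH (SE 0.57, edgeR adjusted p = 0.0192), with G27 far above G28 and G42. Angptl2 and Angptl8 did not pass in either comparison, with edgeR adjusted p from 0.125 to 0.542. Under library totals Angptl2 passed in both, at 1.39 and -1.02. The direction of Angptl4 and Angptl6 opposed that of Angpt1 and Angpt2 in both comparisons, while hepatocyte markers were lowest in DEN rats as well (27661 to 60581 CPM), whose part in this was not tested.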
